A study of Mus musculus with 2 samples.

Results

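Chromatin accessibility was examined at 9 synaptic adhesion genes of the mouse: the neurexins Nrxn2 and Nrxn3, the neuroligins Nlgn1, Nlgn2 and Nlgn3, and the LRRTM genes Lrrtm1, Lrrtm2, Lrrtm3 and Lrrtm4. These are 9 of the 21938 protein-coding genes of the GENCODE M21 annotation, and they were named by family, not by a measured value. Each was taken as its annotated record with 10 kb on either side, and peaks and footprints with their midpoint in that window were assigned to it. The DNase-seq data came from frontal cortex of female B6CASTF1/J hybrid mice aged 14 days, with no treatment or allele beyond the strain named. There were 2 libraries in 1 group, called library 1 and library 2 after their biological replicate numbers. They have separate biosample labels and share a donor label, and both descriptions carry the mark 3x, so whether several animals were pooled is not known and the spread between libraries may be technical. The reference genome used by the authors, mm10, carries the sequence of C57BL/6J, 1 of the 2 parents of this hybrid beside CAST/EiJ, and the effect of that on mapping was not tested. With 1 group of 2 libraries no test between conditions was possible, and both libraries' values are given throughout.

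DNase I cuts exposed DNA, so that dense cutting marks open regulatory DNA (peaks). Short uncut stretches, mostly inside it (footprints), can mark bases covered by bound protein. Neurexins are presynaptic receptors that reach across the synaptic cleft to neuroligins and LRRTM proteins on the postsynaptic side, and the pairs help to set up and tune synapses. Neurexin genes are known for an upstream promoter that gives long alpha forms and an inner promoter that gives short beta forms. Neuroligin-1 is found mainly at excitatory synapses, neuroligin-2 at inhibitory synapses and neuroligin-3 at both kinds, while LRRTM proteins are known from excitatory synapses. Frontal cortex at this age is a tissue in which synapses are forming in large numbers. It holds many cell types, so that more cells of a type and more open chromatin per cell cannot be told apart.

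Sequences of 6 strong sites of these genes away from any annotated transcription start site (TSS) are shown first, because several results on strength and footprints turn on them. They are a selection and not the 6 strongest, so they do not show how common a motif is among strong sites. The strongest site downstream of Nlgn3, with 2.17 in library 1 and 1.48 in library 2, is not among them. All printed sequences come from the mm10 reference (GRCm38), not from the hybrid mice. Capitals mark bases inside footprints of both libraries. The Nrxn2 site is chr19:6489081-6489280, the 3 Nrxn3 sites are chr12:89106501-89106700, chr12:89302101-89302300 and chr12:89505221-89505420, and the Nlgn3 site is chrX:101329741-101329980, all on the plus strand. The Nlgn1 site is chr3:25903221-25903440 on the minus strand, the strand of the gene. The Nrxn2, Nrxn3 and Nlgn1 sites lie in introns, and the Nlgn3 site is intergenic, downstream of the gene.
Nrxn2, 70.5 kb from the 5′ end: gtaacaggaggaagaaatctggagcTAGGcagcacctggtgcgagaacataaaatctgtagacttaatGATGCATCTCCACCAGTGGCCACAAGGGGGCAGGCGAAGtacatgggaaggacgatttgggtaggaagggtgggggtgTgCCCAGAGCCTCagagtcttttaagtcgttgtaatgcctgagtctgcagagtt
Nrxn3, 384 kb from the 5′ end: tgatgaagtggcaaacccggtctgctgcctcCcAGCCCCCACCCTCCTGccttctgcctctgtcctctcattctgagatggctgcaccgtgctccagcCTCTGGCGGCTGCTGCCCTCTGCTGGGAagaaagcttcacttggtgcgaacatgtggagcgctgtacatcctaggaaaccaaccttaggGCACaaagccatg
Nrxn3, 579 kb from the 5′ end: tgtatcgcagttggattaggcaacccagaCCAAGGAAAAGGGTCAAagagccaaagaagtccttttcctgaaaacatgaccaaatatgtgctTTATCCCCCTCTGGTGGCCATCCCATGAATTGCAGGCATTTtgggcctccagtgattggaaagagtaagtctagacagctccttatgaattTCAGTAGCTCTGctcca
Nrxn3, 782 kb from the 5′ end: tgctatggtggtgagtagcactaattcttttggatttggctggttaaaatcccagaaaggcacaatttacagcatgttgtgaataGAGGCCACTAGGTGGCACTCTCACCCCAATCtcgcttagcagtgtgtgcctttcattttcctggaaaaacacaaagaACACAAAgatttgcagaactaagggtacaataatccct
Nlgn3, 30.7 kb from the 5′ end: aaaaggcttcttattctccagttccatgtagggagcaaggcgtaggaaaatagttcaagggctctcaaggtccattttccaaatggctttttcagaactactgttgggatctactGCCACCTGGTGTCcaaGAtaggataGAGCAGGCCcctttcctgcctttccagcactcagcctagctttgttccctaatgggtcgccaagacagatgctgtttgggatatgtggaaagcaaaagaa
Nlgn1, intron: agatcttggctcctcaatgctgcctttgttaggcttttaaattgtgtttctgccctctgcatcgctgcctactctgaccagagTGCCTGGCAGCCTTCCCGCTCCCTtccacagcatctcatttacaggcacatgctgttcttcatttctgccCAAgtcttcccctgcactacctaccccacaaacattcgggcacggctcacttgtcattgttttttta

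Stretches of 250 bases just before 4 start sites are shown as well, with the same use of capitals, because the inner neurexin promoters and the promoters of Nlgn2 and Lrrtm3 carry results described next. The Nrxn3 stretch has no capitals, since no base of it lies in footprints of both libraries. They are chr19:6497421-6497670 (plus strand) before the inner start of Nrxn2, chr12:89812233-89812482 (plus strand) before the inner start of Nrxn3, chr11:69837785-69838034 (minus strand) before the start of Nlgn2, and chr10:64090278-64090527 (minus strand) before that of Lrrtm3.
Nrxn2, before the inner start: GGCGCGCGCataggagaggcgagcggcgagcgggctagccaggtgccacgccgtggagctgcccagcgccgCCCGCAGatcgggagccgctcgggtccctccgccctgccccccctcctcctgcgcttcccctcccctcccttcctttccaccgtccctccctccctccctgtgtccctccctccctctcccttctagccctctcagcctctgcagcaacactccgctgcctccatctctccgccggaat
Nrxn3, before the inner start: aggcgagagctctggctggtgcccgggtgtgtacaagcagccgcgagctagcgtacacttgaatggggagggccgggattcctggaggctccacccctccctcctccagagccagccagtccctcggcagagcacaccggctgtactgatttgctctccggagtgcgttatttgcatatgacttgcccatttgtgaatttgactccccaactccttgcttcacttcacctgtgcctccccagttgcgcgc
Nlgn2, before the start: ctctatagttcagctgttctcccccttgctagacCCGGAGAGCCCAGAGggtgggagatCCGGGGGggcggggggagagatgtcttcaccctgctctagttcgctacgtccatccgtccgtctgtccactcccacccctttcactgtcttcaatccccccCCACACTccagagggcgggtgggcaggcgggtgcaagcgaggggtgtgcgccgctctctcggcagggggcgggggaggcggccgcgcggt
Lrrtm3, before the start: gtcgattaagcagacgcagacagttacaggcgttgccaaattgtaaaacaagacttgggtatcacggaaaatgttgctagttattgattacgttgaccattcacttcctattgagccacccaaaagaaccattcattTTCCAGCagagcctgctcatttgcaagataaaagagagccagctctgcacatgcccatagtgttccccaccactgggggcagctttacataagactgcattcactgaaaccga

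Library 1 had 93641 peaks and 234094 footprints, and library 2 had 66196 peaks and 154015 footprints. The sources used here give no read totals. Peak strength is the authors' signal value on a linear scale, and over all regions called in both libraries it was a median 1.25 times as high in library 1. The label frontal cortex was checked against marker genes by promoter peaks in both libraries. All 6 pan-neuronal genes had one, as did 3 of 6 forebrain genes, whose other 3 had one in library 1 alone, and 4 of 6 astrocyte genes. The counts were 1 of 6 for oligodendrocyte, 0 of 6 for microglia, 1 of 6 for endothelial, and 1 of 8 for liver and muscle genes. Over all protein-coding genes the share was 58.8%. The forebrain and astrocyte counts are near that share, so with so few genes per list the check of the label is coarse.

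All 9 genes had an accessible promoter in both libraries, meaning a peak that reached within 500 bp of at least 1 annotated TSS of the gene, against 58.8% of all protein-coding genes. Library 1 alone called 9 of 9, against 63.8% of all genes, and library 2 alone 9 of 9, against 59.2%. A footprint near a TSS was present in both libraries for 9 of 9, against 56.7% of all genes. Long genes had promoter peaks more often: the share of all genes with one in both libraries was 90.4% of the 230 genes over 500 kb, 82.4% of the 2262 genes from 100 to 500 kb, and 55.7% of the shorter genes. The promoters of the 9 genes were open in both libraries, with signal that depends on the genes they are set against. The median of their strongest promoter peaks was 2.11 in library 1 and 1.35 in library 2, against 2.70 and 1.87 for all genes with a promoter peak. Nrxn2 and Nlgn2 lay above the all-gene median in both libraries, and the other 7 lay below it in both. Promoter strength was lower in longer genes, with medians of 2.89 and 2.00 under 100 kb, 1.90 and 1.36 from 100 to 500 kb, and 1.42 and 1.03 over 500 kb. Against their own length class, Nrxn2, Nrxn3, Nlgn2 and Lrrtm3 lay above the median in both libraries. Nlgn1 was above it in library 1 alone and Lrrtm4 in library 2 alone. Nlgn3, Lrrtm1 and Lrrtm2 lay below it in both.

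**Figure D1:**
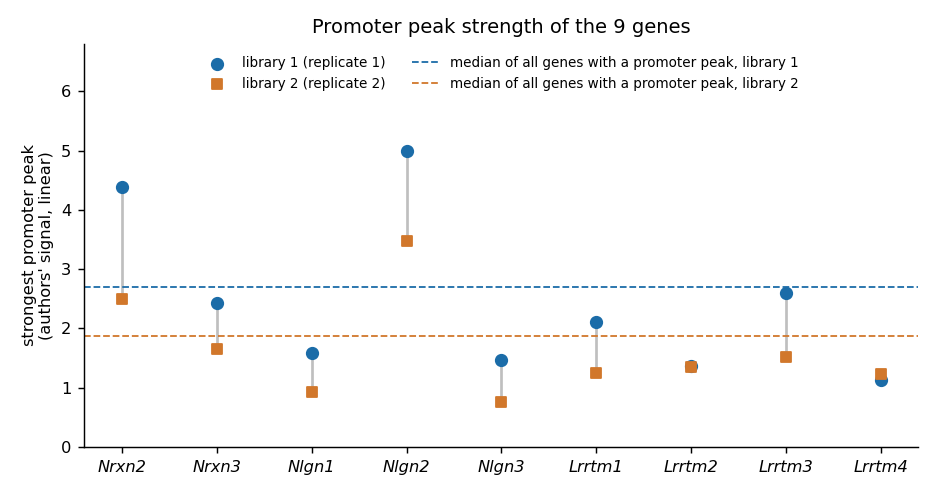
Strongest promoter peak (authors' signal, linear scale) of each of the 9 genes in library 1 (circles) and library 2 (squares), with dashed lines at the median of all protein-coding genes with a promoter peak. Nlgn2 (4.99 and 3.47) and Nrxn2 (4.38 and 2.49) lie above the lines, and Lrrtm4 (1.13 and 1.23) is higher in library 2.

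Both neurexins were open at the 5′ end of their record and at the inner start of the short form. Only in Nrxn2 does GENCODE place coding transcripts at the open 5′ end. Nrxn2 (ENSMUSG00000033768.17, chromosome 19, 6418731 to 6544169, plus strand) had its strongest peak at the first group of starts, 4.38 in library 1 and 2.49 in library 2, with 10 and 6 footprints. The noncoding gene Gm14965 starts on the opposite strand 125 bp away, inside the same peak, so that the signal cannot be assigned to either gene. Transcripts from that group have up to 22 coding exons, the long form. A neighbouring peak, centred 380 bp upstream of the 5′ end, reached 2.63 and 1.97. The starts that give the short form, 78.9 kb further in with 7 coding exons, had a peak of 1.81 in library 1 and 1.01 in library 2, with 9 and 6 footprints. RefSeq predicts a start of another gene, Gm52381, 76 bp from the centre of that peak, so that its signal cannot be assigned to Nrxn2 alone. The upstream peak was 2.42 times as strong as the inner one in library 1 and 2.47 times in library 2, so that the ratio differed little between libraries. Another group of long-form starts, 9.19 kb from the 5′ end with 22 coding exons, held no peak and no footprint in either library.

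Nrxn3 (ENSMUSG00000066392.11, chromosome 12, 88722876 to 90334935, plus strand) showed the same arrangement, with its open upstream site at a start that the annotation does not mark as coding. The peak at the 5′ end of the record was 2.43 in library 1 and 1.66 in library 2, with 4 footprints in each, and GENCODE lists only noncoding and nonsense-mediated decay transcripts from it. The annotated start of the long coding transcript (20 coding exons), 71.6 kb downstream, had no peak and no footprint in either library. No base around it was in the authors' list of bases with a cut rate below an FDR of 0.05. A further coding start 231 kb from the 5′ end had a weak peak of 0.455 in library 1 and none in library 2. The start of the short form (7 coding exons), 1090 kb from the 5′ end, was open in both libraries at 1.53 and 1.05, with 4 and 7 footprints. The 5′ site was 1.59 times as strong as this inner site in library 1 and 1.58 times in library 2.

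Nlgn2 had the strongest promoter peak of the 9, and Nlgn1 and Nlgn3 were among the lowest. Nlgn1 (ENSMUSG00000063887.13, chromosome 3, 25426215 to 26332460, minus strand) had 1.59 in library 1 and 0.935 in library 2 at its 5′ start, and 1.00 and 0.832 at a coding start 179 kb further in. The antisense gene A830092H15Rik has a start 509 bp from the 5′ start, in the same region, and the signal cannot be assigned to either. Its strongest site, chr3:26153921-26154120, lies just outside the 500 bp limit of that inner start, with its centre 714 bp from it, and reached 1.90 and 1.42. RefSeq places starts of Nlgn1 transcripts inside it, a curated one at 26153986 and a predicted one 19 bp from its centre, so that this site counts as a promoter by RefSeq and as an intronic site by GENCODE. Just inside the limit, a region centred 342 bp from the inner start had 0.476 in library 1 and no peak in library 2. The part upstream of that predicted start, chr3:26154003-26154120, read on the minus strand with capitals as before, holds a long footprint at its downstream end.
Nlgn1, before the RefSeq start: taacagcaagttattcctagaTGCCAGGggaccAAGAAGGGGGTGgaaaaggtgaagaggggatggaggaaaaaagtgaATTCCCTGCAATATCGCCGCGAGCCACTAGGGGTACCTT
The footprint there was 39 bp wide in library 1 and 43 bp in library 2. Another coding start, 199 kb from the 5′ end, had no peak in either library.

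Nlgn2 (ENSMUSG00000051790.15, chromosome 11, 69823122 to 69837784, minus strand) is a short gene, and its first start held a peak of 4.99 in library 1 and 3.47 in library 2, with 9 footprints in each. That peak lies between Nlgn2 and Tmem256, a gene on the opposite strand whose start is 730 bp away, so that the signal cannot be assigned to either gene. The 3 other start groups of Nlgn2 had no peak. In the sequence before its start, the Sp and KLF motif GGGCGG occurs at 3 places, and the capitals touch only 1 of them, by 1 base.

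Nlgn3 (ENSMUSG00000031302.16, chromosome X, 101299168 to 101325963, plus strand) was the exception among the 9. Its only coding start group had a peak of 0.556 in library 1 and none in library 2, where no base of the window was in the authors' FDR list, against 140 listed bases in library 1. The peak was 80 bp wide, of 81.2% G and C. The call in both libraries rests on an inner noncoding start 15.2 kb into the gene, with 1.47 in library 1 and 0.755 in library 2. With the 5′ end of each record as the only TSS, 8 of the 9 genes had a peak in both libraries, against 53.2% of all genes. With TSSs of protein-coding transcripts alone, 8 of the 9 had one, against 57.4%, and Nlgn3 was the exception in both counts. Female cells keep a single X chromosome active, and the libraries do not separate the copies. The strongest sites of its window were intergenic and downstream of the gene, 2.17 and 1.48 at chrX:101332341-101332760, and 1.31 and 1.19 at the site whose sequence is shown above.

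The LRRTM genes encode postsynaptic proteins with leucine-rich repeats, and most of their coding sequence lies in a large exon near the start. Lrrtm1, Lrrtm2 and Lrrtm3 lie inside the catenin genes Ctnna2, Ctnna1 and Ctnna3, each on the strand opposite to its host. Lrrtm1 (ENSMUSG00000060780.2) lies at 77242689 to 77257791 of chromosome 6, and Lrrtm2 (ENSMUSG00000071862.3) at 35209003 to 35215024 of chromosome 18. Lrrtm3 (ENSMUSG00000042846.8) lies at 63928472 to 64090277 of chromosome 10, and Lrrtm4 (ENSMUSG00000052581.13), which has no host gene, at 80018877 to 80810143 of chromosome 6. Lrrtm3 had the strongest promoter of the family, 2.59 in library 1 and 1.51 in library 2. The sequence before its start holds 1 of the exact motifs searched, the NFI motif TTGGCA, outside any footprint. Lrrtm1 followed with 2.11 and 1.25. Lrrtm2 had 1.37 and 1.35, in a peak it shares with a Ctnna1 start 68 bp away, so that the peak belongs to both genes. Lrrtm4 had 1.13 and 1.23 and was the only gene of the 9 whose strongest promoter peak was higher in library 2. Lrrtm1 was higher than Lrrtm2 in library 1 and lower in library 2, so that their order is not fixed by these data.

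Open chromatin was also found in the coding exon of 3 of the 4 LRRTM genes. Lrrtm1 had adjacent regions in its coding exon in both libraries, 0.951 and 0.866 at chr6:77243525-77244440 and 0.703 and 0.669 at chr6:77244441-77245240, with 9 and 13 footprints in the nearer one. Lrrtm2 had 2 such regions in both libraries, with 0.576 and 0.643, and with 0.616 and 0.583. Lrrtm3 had 3, in library 1 alone, the strongest at 0.871. Lrrtm4 had none. Of the peaks away from any TSS in the 4 LRRTM windows, 10 of 28 in library 1 (35.7%) and 5 of 11 in library 2 (45.5%) had their midpoint in a coding exon. The shares were 1 of 79 (1.27%) and 0 of 49 in the neurexin and neuroligin windows, and 3.47% and 3.00% over all peaks away from a TSS. The LRRTM regions in coding exons were centred 918 to 2146 bp from the nearest start of their gene. Neither this closeness nor the share of coding bases in each window was accounted for. Neighbouring peaks of an exon are not independent, and some entries of the lists overlap each other (7 in library 1 and 3 in library 2 within the 9 windows).

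**Figure D2:**
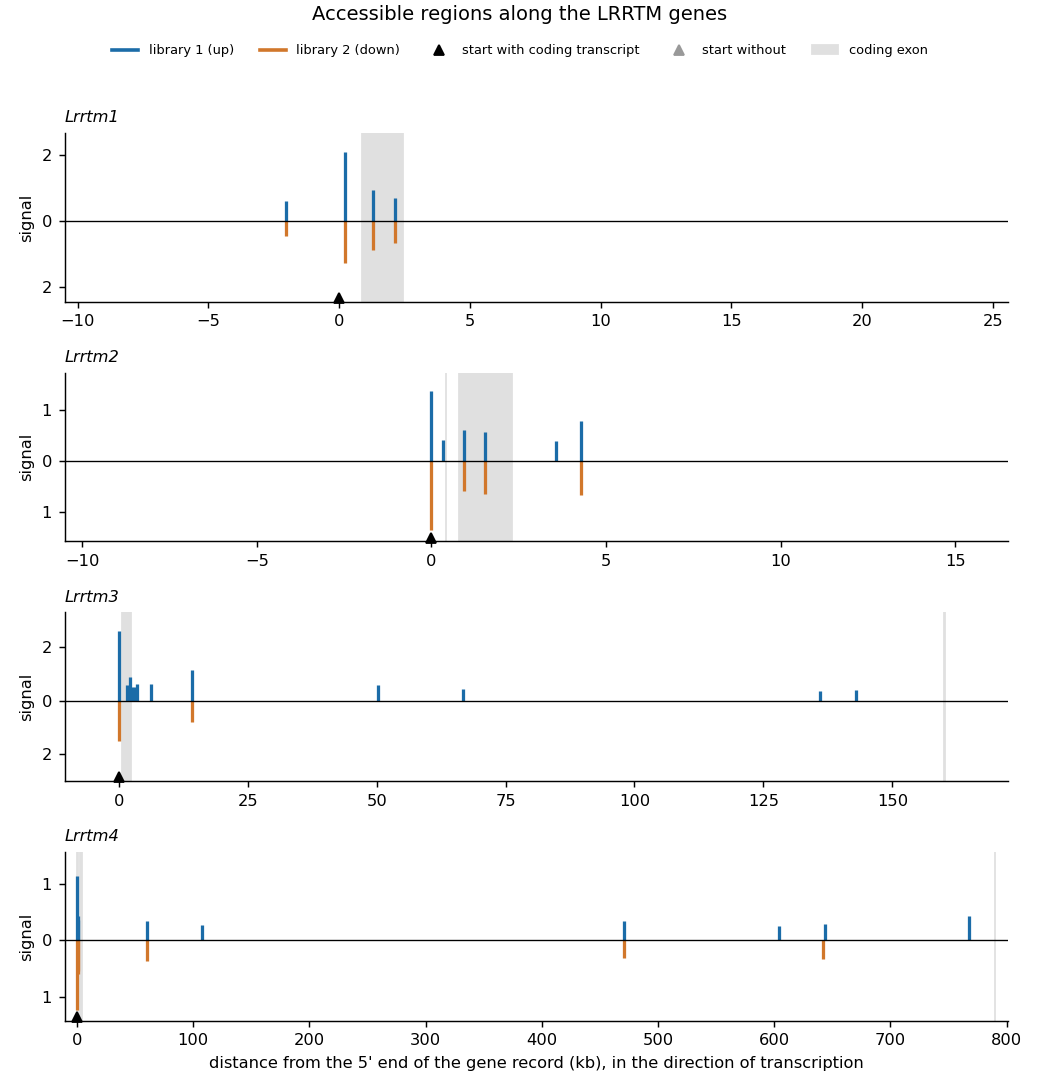
Peak regions along the 4 LRRTM genes by distance from the 5′ end (kb, in the direction of transcription), with the signal of library 1 drawn up and that of library 2 drawn down, coding exons shaded and start sites as triangles. Regions sit inside the large coding exon of Lrrtm1, Lrrtm2 and Lrrtm3, and all Lrrtm3 regions but 2 appear in library 1 alone.

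Away from start sites the 9 windows held 107 peaks in library 1 and 60 in library 2, which is 78.7% and 75.0% of their peaks, against 70.4% and 64.7% of all peaks. A gene of the 9 had a median of 6 such peaks in library 1 and 3 in library 2, against 1 in each library for all genes. Per 100 kb of window the medians were 4.27 and 2.88, against 2.63 and 1.44. Counts grow with gene length, so each gene was also set against genes of its own length class. Nrxn3, a gene of 1612 kb, had the highest counts of the 9, 46 in library 1 and 23 in library 2, and ranked 20 among all genes by mean count. Of the genes over 500 kb, 92.6% had fewer on average than Nrxn3. That class has no upper limit, so it does not remove the part of length for so long a gene. Per 100 kb of window Nrxn3 had 2.82 in library 1 and 1.41 in library 2. The medians were 2.00 and 1.24 in its class, and 2.63 and 1.44 over all genes. Nlgn1, of 906 kb, had 13 such peaks in each library, against class medians of 15.0 and 9.50, with 49.1% of the class below it. Lrrtm4, of 791 kb, stood at the low end with 6 and 3, and 6.09% of the class had fewer.

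Among the genes of 100 to 500 kb, Nrxn2 had 17 and 10 such peaks and 93.0% of the class had fewer. Lrrtm3 had 12 in library 1 and 1 in library 2, with 65.9% of the class below its mean, in proportion the widest gap between libraries of the 9. The authors' FDR list held 3.28 kb of the Lrrtm3 window in library 1 and 0.434 kb in library 2, in proportion the widest difference of the 9 windows. That list has a threshold and comes from the same libraries as the peaks, so it is not separate evidence for the gap. Among the genes under 100 kb, Lrrtm2 had 5 and 4 (94.0% of the class below), Lrrtm1 5 and 3 (91.6%), Nlgn3 2 and 2 (70.9%), and Nlgn2 1 and 1 (46.4%). Only 3 windows, those of Nrxn3, Nlgn1 and Lrrtm4, hold no record of another protein-coding gene, and in the other 6 a peak may belong to a neighbour or host.

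**Figure D3:**
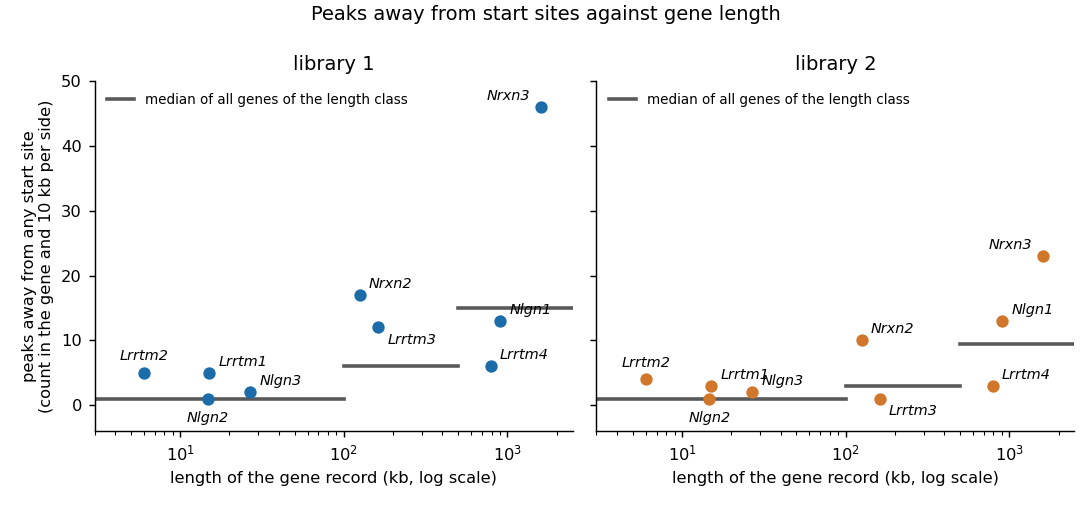
Peaks away from any start site in the window of each gene, against the length of its record (kb, log scale), in library 1 (left) and library 2 (right), with bars at the median of all genes of each length class. Nrxn3 (46 and 23) and Nrxn2 (17 and 10) lie above their class medians in both libraries, and Lrrtm4 (6 and 3) lies below.

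In Nrxn2, Nrxn3, Nlgn1 and Nlgn3 the strongest sites away from starts came close to the promoters of the same genes or passed them. In Nrxn2 the intronic site 70.5 kb from the 5′ end had 3.36 in library 1 and 2.69 in library 2, above the inner promoter in both libraries and above the upstream promoter in library 2. Next came 1.68 and 1.53 at chr19:6492161-6492560, and 1.99 and 1.15 at chr19:6501935-6502279. In Nrxn3 the sites at 384 kb and 579 kb had 2.32 and 1.61, and 2.12 and 1.96, against 2.43 and 1.66 at the open 5′ end of the record. The site at 782 kb had 1.20 and 1.00, and a site without the CTCF core described next, chr12:90142001-90142320, had 1.08 and 1.03. In Nlgn1 the site at chr3:25903221-25903440 had 1.37 and 1.30, and in library 2 this was higher than its 5′ promoter. In Lrrtm3 the only site called in both libraries, chr10:64076101-64076300, had 1.13 and 0.806. The sites of Lrrtm4 were faint, and the stronger of the 2 called in both libraries had 0.335 and 0.360.

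**Figure D4:**
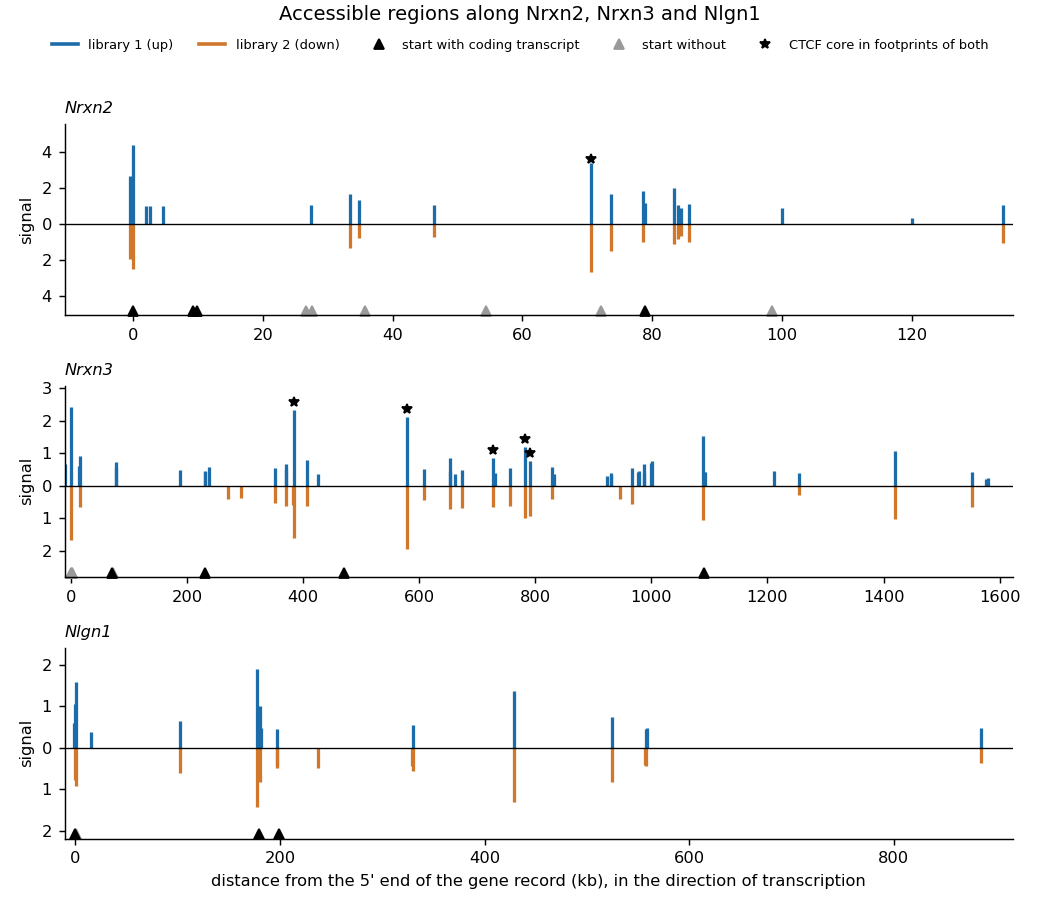
Peak regions along Nrxn2, Nrxn3 and Nlgn1 by distance from the 5′ end (kb), with the signal of library 1 drawn up and that of library 2 drawn down, annotated starts as triangles (black where a protein-coding transcript begins) and stars at sites away from starts whose CTCF core lies in footprints of both libraries. Intronic sites of Nrxn2 (3.36 and 2.69) and Nrxn3 (2.32 and 1.61, 2.12 and 1.96) come close to the promoters in height, and the stars of Nrxn3 fall within 408 kb.

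Some of these sites hold a core motif of CTCF, a zinc finger protein known to anchor chromatin loops, and others do not. Where the whole core lay inside footprints of both libraries, those footprints were 13 to 50 bp wide. The Nlgn1 site at chr3:25903221-25903440, with a footprint of 27 bp in library 1 and 24 bp in library 2, had no match with fewer than 3 mismatches. The motif was sought as a degenerate core of 12 positions on both strands with at most 1 mismatch, a form chosen after the letters of the sites were seen. Of the 47 regions away from starts that both libraries called, 13 held the core (27.7%), against 34.6% of all 33506 such regions. In 7 of them (14.9%) all 12 bases lay inside footprints of both libraries, against 20.5% of all, so that neither share was above that of the genome. Of the 62 regions called in 1 library, 2 held the core (3.23%), against 7.88% of all such regions. None of the 62 had it inside footprints of both libraries, but only 6 of all 38393 such regions (0.0156%) did. With so low a share over the genome, the absence among the 62 says nothing about these genes. The 7 comprise 1 in Nrxn2, 5 in Nrxn3 and 1 downstream of Nlgn3, and none is in an LRRTM window. The Nrxn2 peak centred 380 bp upstream of the 5′ end is near a start and so was not counted. It also held the core, with 0 mismatches and all 12 bases inside footprints of both libraries. The cores of the 7 are given here in the direction of the motif, with capitals at mismatches. They lie at chr19:6489168-6489179 (plus strand), chr12:89106613-89106624 (minus), chr12:89302198-89302209 (minus), chr12:89451130-89451141 (minus), chr12:89505310-89505321 (plus), chr12:89513970-89513981 (plus) and chrX:101329856-101329867 (minus).
Nrxn2, 70.5 kb: ccacAagggggc
Nrxn3, 384 kb: ccagcagagggc
Nrxn3, 579 kb: ccaccagagggG
Nrxn3, 728 kb: ccaccagagggA
Nrxn3, 782 kb: ccactaggtggc
Nrxn3, 791 kb: ccagtagagggc
Nlgn3, 30.7 kb: Acaccaggtggc
In Nrxn3 the 3 upstream cores are on the minus strand and the 2 downstream ones on the plus strand. The best match in the Nlgn1 site beside the RefSeq start had 2 mismatches and was not counted, although it lay within the footprints of both libraries.

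Wide footprints held the core more often than narrow ones. A wider footprint offers more places for the 12 positions to match, and this effect of width alone was not separated. Footprints of 25 bp or more were 14 of 320 in library 1 (4.38%) and 14 of 201 in library 2 (6.97%) in the 9 windows, against 9.48% and 10.8% of all footprints. Among the wide ones away from starts, 7 of 11 in library 1 (63.6%) and 5 of 8 in library 2 (62.5%) held the core, against 56.4% and 60.9% of all such footprints. Among narrower footprints the core was in 2.29% and 3.21%, against 1.98% and 2.66% of all. In 200 bp around the centre of peaks away from starts, the core was in 15 of 107 (14.0%) and 14 of 60 (23.3%), against 21.1% and 28.0% of all such peaks. The share of peaks with the core was thus lower in the 9 windows than over all peaks, a difference that was not tested, and wide footprints away from starts held it about as often as all such footprints did.

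Beside this core, 17 motifs were searched as exact letters on both strands, and few footprints held them. With 5 bp added on each side, 48 of 320 footprints in library 1 (15.0%) and 31 of 201 in library 2 (15.4%) held at least 1, against 16.4% and 16.3% of all footprints. An exact CTCF form, AGGGGGCGC, was in 1 footprint of each library. The E-box CAGATG, bound by neurogenic bHLH factors, was in 14 footprints in library 1 (4.38%, against 2.09% of all) and in 4 in library 2 (1.99%, against 1.76%), so that the difference was not seen in library 2. Of peaks away from starts, the NFI motif TTGGCA was in 22 of 107 (20.6%) and 15 of 60, against 17.6% and 16.9% of all. The AP-1 motif TGANTCA was in 13 (12.1%) and 7 (11.7%), against 8.78% and 7.71%. The MEF2 motif CTAAAAATA was in none, against 0.591% and 0.598%. In the 300 bases from 250 before to 50 after each start of a coding transcript, GGGCGG was in 12 of the 34 windows of the 9 genes (35.3%), which overlap where starts are close, against 43.1% of all. GGGCGG shares letters with the EGR motif GCGTGGGCG, and a base may count for both. A match of letters does not show that the factor is bound.

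The windows held 320 footprints in library 1 and 201 in library 2. Of these 223 (69.7%) and 133 (66.2%) were away from any TSS, against 57.2% and 51.5% of all footprints. Nrxn3 had most in both libraries, 98 and 47, followed by Nrxn2 with 63 and 46 and Nlgn1 with 47 and 34. Nlgn2 had 24 and 21, and 23 and 19 of them were near a TSS. Nlgn3 had 16 and 14, Lrrtm1 19 and 20, Lrrtm2 12 and 8, Lrrtm4 14 and 8, and Lrrtm3 27 and 3. Footprints were shared between libraries less often than peaks: 28.8% of those in library 1 and 48.3% of those in library 2 overlapped a footprint of the other library, against 37.4% and 58.2% of all footprints.

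Most peaks that library 2 called were also in library 1. Of the peaks in the 9 windows, 74 of 136 in library 1 (54.4%) and 69 of 80 in library 2 (86.2%) overlapped a peak of the other library, against 59.1% and 84.4% of all peaks. Merged over libraries there were 135 regions, of which 64 were called in both, 60 in library 1 alone and 11 in library 2 alone. Over the genome there were 100545 regions, with 52787 called in both, 37589 in library 1 alone and 10169 in library 2 alone. Of the peaks of the 9 windows called in library 1 alone, 7 of 62 (11.3%) overlapped bases that the FDR list of library 2 holds, against 12.2% of all such peaks. The reverse held for 2 of 11 (18.2%), against 36.1%. In the 64 shared regions the signal of library 1 was a median 1.20 times that of library 2, with a range of 0.631 to 1.95. It was higher in 50 of them, and in 41879 of the 52787 shared regions over the genome. The median ratio was 1.46 at start sites and 1.10 away from them, against 1.43 and 1.17 over all shared regions, so that the excess of library 1 was larger at start sites than elsewhere, in the 9 windows and over the genome.

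**Figure D5:**
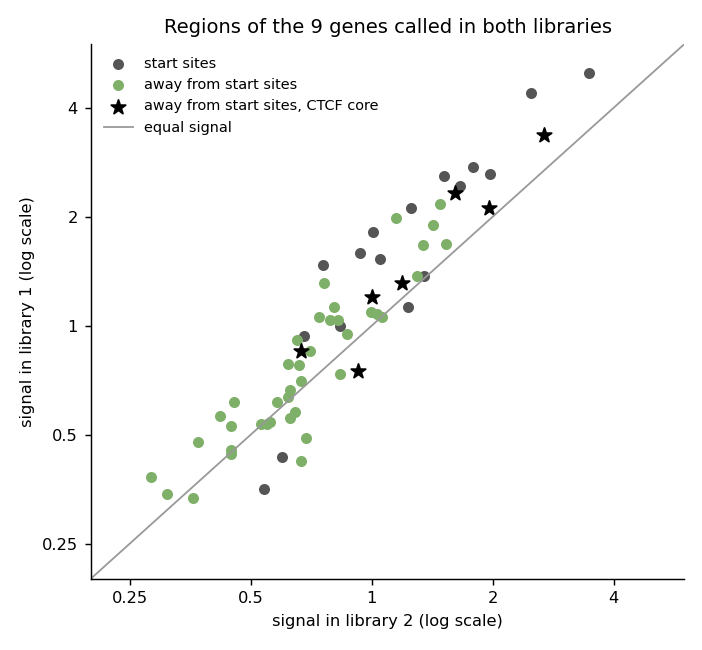
Signal of the 64 regions of the 9 genes called in both libraries, library 1 against library 2 (both axes log scale), with the line of equal signal. Most start sites lie above the line (median ratio 1.46) and sites away from starts lie nearer to it (1.10), with the CTCF core sites as stars.

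Promoters were also examined at genes whose products work with neurexins, neuroligins and LRRTM proteins. Of 73 such genes in 7 lists, 67 had a promoter peak in both libraries, and the median of their strongest promoter peaks was 2.08 in library 1 and 1.35 in library 2. Over all protein-coding genes the share was 58.8%, with 82.4% from 100 to 500 kb and 90.4% over 500 kb, and the medians were 2.70 and 1.87. The lists mix short and long genes and were not matched for length, so their counts are descriptions. The other ligands of neurexins had one in 12 of 14. Dag1, the dystroglycan gene, had 6.48 and 3.71, and the latrophilin gene Adgrl1 had 3.74 and 2.85, with 11 and 5 sites away from starts, the most of its list by the mean of both libraries. Nxph4, a neurexophilin gene, had no promoter peak in either library. Of the MDGA genes, whose proteins block neuroligin from binding neurexin, Mdga2 had 1.46 and 1.14, and Mdga1 had 1.20 in library 1 and none in library 2, with 10 and 7 sites away from starts.

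Inside the synapse every listed partner gene had a promoter peak in both libraries. Of the 8 presynaptic partners, Apba1 (a Mint adaptor) had 5.48 and 4.08, and Lin7b, of the same complex, had 3.81 and 2.21, while Apba2 had the most sites away from starts, 42 and 31. Of the 12 postsynaptic partners, Dlg2, the PSD-93 scaffold gene, had 7.33 and 3.33, with 39 and 32 such sites, the most of its list by the mean of both libraries. Gopc had 6.03 and 3.73. Other synaptic organizers had a promoter peak in both libraries in 24 of 26. By the mean of both libraries the highest were Ptprs, 6.04 and 2.95, and Slitrk5, 4.57 and 3.16. The long phosphatase gene Ptprd had 28 and 20 sites away from starts, and Lrfn1 and Flrt1 had no promoter peak. Of 8 genes for splicing and shedding of these proteins, 7 had one. Nova2 had 6.09 and 4.09 and Nova1 5.93 and 3.20, the splicing regulator Rbfox1 had 48 and 29 sites away from starts, and the protease gene Mmp9 had no promoter peak. The host genes Ctnna3 (9.57 and 5.90), Ctnna2 (4.19 and 2.07) and Ctnna1 (1.37 and 1.35, the peak shared with Lrrtm2) had one in 3 of 3.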

How the data were processed

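DNase-seq was done on 2 libraries of 1 group, per the labels. Per the notes deposited with each library, the authors aligned reads to mm10 and called peaks, footprints and FDR-controlled cut rates in each library on its own. The sources used here name no aligner, caller or read total. The deposited peak lists give a signal value per peak, on a scale the notes do not state. The authors' deposited cut-rate lists give an FDR (false discovery rate) per stretch of bases, with 0.05 the highest listed. The deposited footprint lists hold 1 constant score, so only positions were used.

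The longer peak list of each library was used. Peaks and footprints were assigned by midpoint to gene records of GENCODE M21 with 10 kb per side, and called near a TSS within 500 bp. A promoter was called open where a peak overlapped that window. Regions overlapping by at least 1 bp were merged over libraries. The members and gene lists were chosen with earlier results of these data known. The genes named were the 9 members with their promoter peaks and 3 strongest other sites. Of each further gene list they were the 2 strongest promoters, the gene with most sites away from starts, and those with no promoter peak. The scripts were tested on simulated data (5 of 5 tests passed) and used Python 3.11.15, pandas 2.3.3, numpy 2.4.6, pysam 0.24.0, bedtools 2.31.1 and matplotlib 3.10.9. No p-value was computed, since 2 libraries of 1 group give no comparison of conditions. Another peak list, other windows, overlaps and motif flanks, and each library alone were tried as alternatives.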

Additional observations from a re-analysis of the deposited data

How the results depend on the processing

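Read totals are not known, so the part of depth in sites called in library 1 alone was not tested. Over the alternatives, 25 values stayed within a set limit of those reported and 5 moved further. The limit was a fold range for counts and, for shares and strengths, a fraction of the gap between the libraries. A wide gap thus made the limit loose and a narrow gap made it tight, so these numbers do not measure how stable the results are. The number of genes with an open promoter was 9 in each library alone and 8 with the 5′ end or coding TSSs only. The mean count of peaks away from start sites was 83.5 over the libraries, 36 with the shorter peak list, and 52 over the 3 windows with no other protein-coding record. Library 1 alone gave 107 and library 2 alone 60. The mean footprint count of 260.5 was 201 to 320 and the median promoter strength of 1.68 was 1.35 to 2.11 for single libraries. Shared peaks were 70.3% on average and 54.9% under a 50% reciprocal overlap. Footprints with a motif were 15.2% on average, 8.20% with no added flank and 19.3% with 10 bp. With the degenerate CTCF core alone, chosen after seeing the data, they were 5.33%. The cause was not tested beyond what each setting leaves out. No paired analysis was possible because there is only 1 group.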
